A study of Mus musculus with 16 samples.

Results

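The genes described here encode the digestive machinery of the lysosome: its hydrolases, membrane proteins and the proton pump that acidifies it. They comprise 39 named lysosomal genes and 17 genes of the vacuolar proton pump, all genes whose symbol begins with Atp6v or Atp6ap apart from Atp6v0d2, so 56 of the 10920 genes in the files. All 56 passed the filter on low values, an FPKM of at least 1 in at least 4 libraries, as did 9891 genes in all. By role the lysosomal genes divide into 10 proteases, 6 genes of lipid breakdown, 13 glycan hydrolases, 7 membrane proteins, progranulin and the transcription factors Tfeb and Tfe3. The pump genes divide into 9 genes of the cytosolic V1 sector, 6 of the membrane V0 sector and 2 accessory proteins. RNA was sequenced from macrophages grown out of bone marrow of C57BL/6 mice aged 8 weeks, with 7 days of M-CSF at 20 ng/ml in every group. The 4 groups of 4 libraries are wild-type cells left untreated, wild-type cells with 24 hours of IL-4 at 20 ng/ml, and the same 2 conditions in cells of Sirt3K223R mice (KR below), which carry arginine in place of a lysine of the mitochondrial deacetylase Sirt3. Whether the 4 libraries of a group stem from different mice is not stated in the labels. The p-values therefore cover only the scatter among these libraries, part of which may be technical.

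Lysosomes degrade proteins, lipids and glycans with hydrolases that work best at acid pH. The vacuolar ATPase supplies that acidity: its V1 sector splits ATP in the cytosol and its V0 sector carries protons across the membrane. In macrophages the compartment digests engulfed material and prepares peptides for presentation, and many of its genes carry an E-box-like element, the CLEAR motif, that is bound by TFEB and TFE3. IL-4, which drives alternative activation, signals through the transcription factor STAT6.

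FPKM values, inferred rather than named in the files, summed to between 288143 and 306581 per library, and the depth is unknown. The median correlation of a library with the others of its group was 0.9797 for KR with IL-4 replicate 2 and between 0.985 and 0.9904 for the other libraries. That library held the highest or the lowest value of its group for 46 of the 56 members, against at most 37 for any other library, and results that rest on it are given with and without it. The files of KR libraries have a gene type column that wild-type files lack, and a difference in the authors' processing cannot be told apart from genotype. Of the macrophage markers 9 of 10 were in the files, all above an FPKM of 1 in some library. They summed to 13520 to 15148 FPKM in untreated wild-type libraries and 9693 to 10788 in those with IL-4, and to 12438 to 15176 and 9695 to 12074 in KR, without overlap in either genotype. In each genotype 5 of the 9 were called lower with IL-4 and 1 higher. Over all genes tested 15.3% were called lower and 10.7% higher in wild type, and 29.1% and 13.5% in KR. Neutrophil markers (6 of 9 in the files) summed to 78.8 to 165 in untreated wild-type libraries and 53.5 to 105 in those with IL-4, and to 105 to 145 and 40.4 to 63.9 in KR. Osteoclast markers (7 of 8) summed to 59.4 to 65.1 and 96.8 to 111 in wild type and to 58.3 to 74.9 and 117 to 152 in KR. Their part in the results below was not tested. In such bulk samples, fewer cells of a type and less RNA per cell cannot be told apart.

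RefSeq promoters on GRCm38.p6, from 250 bases before to 50 after the start of transcription, were at hand for 47 of the 56 members. The CLEAR half-site TCACGTG, on either strand, was in the promoters of 16 of them (34%), against 4.29% of 27025 genes. The wider E-box CACGTG, which contains the half-site's last letters and so overlaps it, was in 17 (36.2%, against 8.09%), and the palindrome TCACGTGA, a form of the half-site, in 8 (17%, against 1.12%). The spaced STAT6 element TTCNNNNGAA was in those of Cln3 and Tfeb (4.26%, against 8.01%). Shown here are the surroundings of the half-site in the members that hold it and were called in at least 1 comparison below. Capitals mark the half-site or the palindrome, all sequences are on the coding strand, and the distance is from the start of transcription to the first capital.
Glb1, chr9:114401018-114401046, plus strand, -49: ctgcttctgagTCACGTGgcctacagagg
Lgmn, chr12:102439125-102439153, minus strand, -50: tggaatgtctgTCACGTGgtccattttat
Gaa, chr11:119267811-119267839, plus strand, -141: tttctgtgcgaTCACGTGtttgactctga
Gla, chrX:134601215-134601244, minus strand, -228: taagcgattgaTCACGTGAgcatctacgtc
Cln3, chr7:126583340-126583369, minus strand, -122: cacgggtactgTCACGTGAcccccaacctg
Mcoln1, chr8:3500462-3500491, plus strand, -46: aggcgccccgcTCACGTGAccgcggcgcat
Atp6v0b, chr4:117887349-117887377, minus strand, -37: gtgcgcgggggTCACGTGgggtcggcgca
The promoters of Gla, Cln3, Mcoln1 and Atp6v0b each hold a second copy. The stretches shown for Lgmn, Cln3 and Mcoln1 lie inside the annotated genes, whose upstream ends are at chr12:102439813, chr7:126585817 and chr8:3500457.

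The promoter windows of the 2 members whose responses stood out below differ in the half-site, and both are shown whole. Glb1, with the half-site in capitals, was the single member called for a difference between genotypes in its response to IL-4. Other members passed only in alternative fits, given below. Atp6v0a1 had the largest response to IL-4 among the members in both genotypes, and its window holds no half-site. The files place Atp6v0a1 (ENSMUSG00000019302.16) at chr11:101009452-101063719, so the RefSeq start used for this window lies inside the annotated gene. The bases before the annotated start of that gene were not searched.
Glb1, chr9:114400828-114401127, plus strand: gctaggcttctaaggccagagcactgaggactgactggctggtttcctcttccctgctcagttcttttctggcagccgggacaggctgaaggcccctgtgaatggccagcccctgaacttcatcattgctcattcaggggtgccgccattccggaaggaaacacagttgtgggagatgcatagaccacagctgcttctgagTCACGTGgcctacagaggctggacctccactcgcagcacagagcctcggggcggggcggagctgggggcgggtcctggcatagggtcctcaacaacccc
Atp6v0a1, chr11:101010148-101010447, plus strand: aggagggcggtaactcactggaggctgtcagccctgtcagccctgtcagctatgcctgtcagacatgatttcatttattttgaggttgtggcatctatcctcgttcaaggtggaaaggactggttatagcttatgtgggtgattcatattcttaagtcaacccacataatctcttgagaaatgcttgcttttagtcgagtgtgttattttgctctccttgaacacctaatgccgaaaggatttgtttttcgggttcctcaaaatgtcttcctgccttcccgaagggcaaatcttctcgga

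Levels of the lysosomal genes spanned from a mean FPKM over all libraries of 6.53 for Arsb, which removes sulfate from dermatan sulfate, to 5454 for the aspartic protease Ctsd. Next to Ctsd stood Psap, the precursor of the saposins that present lipids to their hydrolases, at 4683, and Ctss, the cysteine protease that trims the invariant chain of MHC class II, at 4626. Those 3 genes alone took 4.42% ± 0.19 of summed FPKM in untreated wild-type cells (SD, n = 4). The pump genes were lower and closer together, led by Atp6v1g1 (190.3), Atp6v1b2 (172) and Atp6v1a (152), all of the V1 sector. Atp6v1g2, known as the neuronal form of the G subunit, was lowest at 0.912. The V0 a subunit, which decides where the pump is sited, has several forms, and Atp6v0a1 lay above Atp6v0a2, whose mean FPKM was 6.29.

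**Figure D1:**
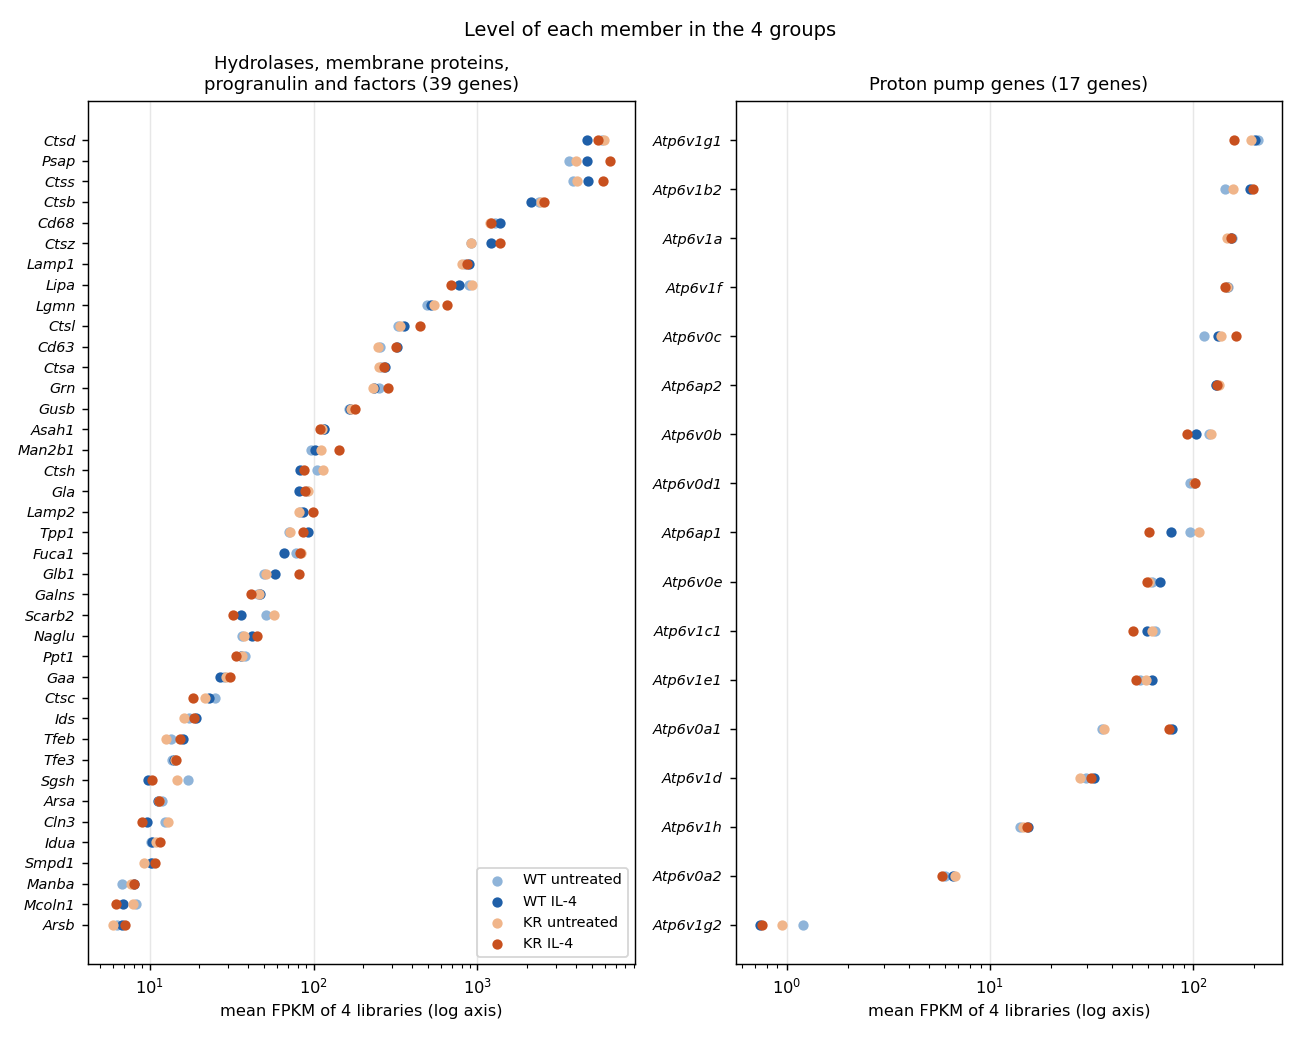
Mean FPKM of 4 libraries for each member on a log axis, with lysosomal genes on the left and pump genes on the right, ordered by the mean over all libraries; colours mark the 4 groups. Ctsd, Psap and Ctss lie above all other members in every group, and the groups differ visibly for few genes, among them Atp6v0a1.

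Taken as a share of summed FPKM, the 39 lysosomal genes made up 7.46% ± 0.243 in wild-type cells left untreated and 7.71% ± 0.24 in those with IL-4 (SD, n = 4). In KR cells the shares were 7.89% ± 0.122 and 9.13% ± 1.13. The KR libraries with IL-4 held 8.74%, 10.8%, 8.44% and 8.53%, so the SD of that group was set by replicate 2, and the other 3 still lay above every library of the other groups, whose highest was 8.01%. Ctsd, Psap and Ctss alone held 4.77% ± 0.092 in untreated KR cells and 5.85% ± 1.05 in those with IL-4. Much of the KR rise from 7.89% to 9.13% thus lay in the sum of these 3 genes, and shares without them were not computed. Of the 3, Psap and Ctss rose with IL-4 in mean FPKM in KR, from 4016 to 6464 and from 4042 to 5866. Mean Ctsd fell from 5959 to 5425 FPKM, although replicate 2 with IL-4 was at 7670.4. The 17 pump genes stayed between 0.477% and 0.527% in all libraries. Every untreated KR library was above every untreated wild-type one for them, at 0.507% to 0.523% against 0.477% to 0.506%. The gap was narrow, with the nearest libraries at 0.5067% and 0.5058%. In limma 0 of the 17 pump genes had an unadjusted p under 0.05 between those 2 groups. The other groups compared overlapped, and these shares were not tested.

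**Figure D2:**
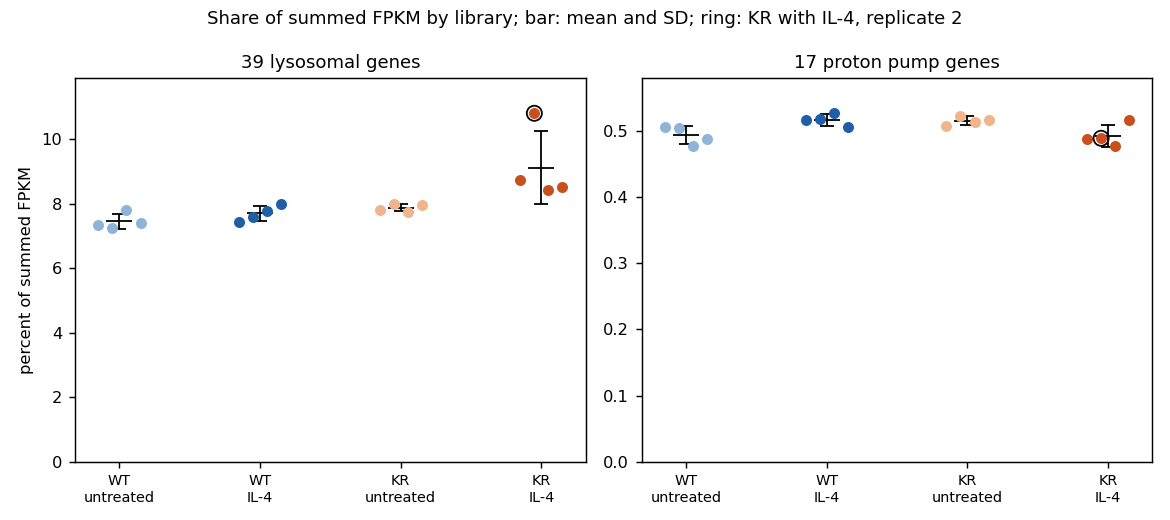
Percent of summed FPKM taken by the 39 lysosomal genes (left) and the 17 pump genes (right) in each library, with the mean and SD of each group of 4; the ring marks KR with IL-4 replicate 2. The ringed library is at 10.8% for the lysosomal genes and inside the range of the others for the pump.

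In wild-type macrophages IL-4 moved lysosomal genes in both directions rather than together. Of the 39, 7 rose and 7 fell, among them 6 and 4 of the 29 hydrolases and 1 and 3 of the 7 membrane proteins; after quantile normalization 4 rose and 9 fell. Over all genes tested 26% were called at an adjusted p under 0.05, 10.7% higher and 15.3% lower. The median difference of the 39 was 0.019 on the log2(FPKM + 1) scale, and that of all genes was -0.042. All adjusted p-values here are from limma with Benjamini-Hochberg adjustment over all genes tested, and differences are on the log2(FPKM + 1) scale.

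Among the proteases, Ctsz, a cysteine carboxypeptidase, stood at 936, 917, 883 and 895 FPKM in the untreated wild-type libraries and at 1183, 1206, 1219 and 1210.5 with IL-4. The 2 groups did not overlap, and all 4 IL-4 libraries were within a narrow band (rise of 0.41, SE 0.041, adjusted p = 2.23e-06). Ctss rose from 3846 ± 119 to 4751 ± 396 FPKM (0.30, adjusted p = 0.00888). Tpp1, a tripeptidyl peptidase lost in a childhood ceroid lipofuscinosis, rose from 71.1 ± 0.531 to 91.9 ± 4.5 (0.37, adjusted p = 0.000156). Ctsh, an aminopeptidase, went the other way, from 105 ± 4.82 to 82.7 ± 6.18 (fell by 0.34, adjusted p = 0.00136). The remaining proteases were not called in this genotype. Quantile normalization, which sets the highest values of all libraries equal, ended the calls of Ctsz (adjusted p = 0.154) and Ctss (0.0694).

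Of the genes of lipid breakdown, Psap read 3587, 3499.7, 3816 and 3561 FPKM untreated and 4315, 4566, 4788 and 4869 with IL-4. Every IL-4 library exceeded every untreated one, and the rise was 0.36 (SE 0.088, adjusted p = 0.00682; 0.694 after quantile normalization). Lipa, which splits cholesteryl esters and triglycerides, fell from 891 ± 52.7 to 774 ± 34 (by 0.20, adjusted p = 0.0208). That call was lost in 4 of the fits that leave out 1 library, those without IL-4 replicate 2 (adjusted p = 0.0744) or untreated replicates 1, 3 or 4 (0.0543, 0.0646 and 0.0556). Asah1, Smpd1, Arsa and Ppt1, which act on ceramide, sphingomyelin, sulfatide and palmitoylated proteins, were not called.

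Of the glycan hydrolases, the beta-galactosidase Glb1 and the beta-mannosidase Manba rose, from 50 ± 2.93 to 58.1 ± 2.42 FPKM (0.21, adjusted p = 0.00335) and from 6.78 ± 0.399 to 8.06 ± 0.608 (0.22, adjusted p = 0.00926). Fuca1, which removes fucose, fell from 78.1 ± 4.12 to 66.3 ± 5.11, with overlapping libraries (by 0.24, adjusted p = 0.00385). Gla, the alpha-galactosidase lost in Fabry disease, fell from 91.3 ± 2.57 to 82 ± 5.03 (by 0.15, adjusted p = 0.04). The call of Gla did not hold with median-ratio scaling (adjusted p = 0.131), in a fit of the 2 groups alone (0.0595) or in 8 of the fits that leave out 1 library: without wild-type IL-4 replicates 2, 3 or 4 (0.0633, 0.122 and 0.0955), wild-type untreated replicates 1, 3 or 4 (0.0717, 0.0966 and 0.0941) or KR untreated replicates 3 or 4 (0.051 and 0.0504).

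The membrane proteins showed the largest lysosomal fall that was called. Scarb2, an integral protein of the lysosomal membrane, was at 46.1, 47.4, 58.6 and 52.3 FPKM untreated and at 34.5, 33.8, 37.2 and 37.8 with IL-4. No IL-4 library reached the lowest untreated one (fall by 0.49, SE 0.073, adjusted p = 0.00011). Cln3, a membrane protein lost in juvenile ceroid lipofuscinosis, fell from 12.4 ± 1.01 to 9.67 ± 0.505 (by 0.33, adjusted p = 0.000976). Mcoln1, the calcium channel of the lysosome, fell from 8.24 ± 0.634 to 6.87 ± 0.0975 (by 0.23, adjusted p = 0.00888). Cd63, a tetraspanin of late endosomes, rose from 255 ± 10.3 to 323 ± 8.22 (0.34, adjusted p = 0.000712). The abundant structural proteins Lamp1 and Lamp2 and the scavenger receptor-like Cd68 were not called, at 0.10, 0.06 and 0.11. Progranulin (Grn) was at -0.11 (adjusted p = 0.475).

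Among the 17 pump genes, 2 rose and 1 fell in wild type, 17.6% beside the 26% of all genes. After quantile normalization 2 rose and 4 fell. Atp6v0a1 was at 39.8, 31.8, 34.4 and 36 FPKM untreated and at 92.1, 78.1, 69.6 and 73.8 with IL-4, so that the lowest IL-4 library was well above the highest untreated one. The rise was 2.21-fold in FPKM (1.12 on the log2 scale, SE 0.095, adjusted p = 3.95e-07). Atp6v1b2, the widely expressed form of the B subunit in the ATP-splitting head, rose from 143 ± 6.07 to 190.3 ± 7.16 (0.41, adjusted p = 0.000274). Atp6v0b, a subunit of the rotating ring, read 119.8, 120.0, 118 and 123 untreated and 100.4, 106, 107 and 102 with IL-4, again without overlap (fall by 0.21, adjusted p = 0.00123). Atp6v1d, of the central stalk, was not called (0.14, adjusted p = 0.106) but passed in the fit with the replicate number as a block (adjusted p = 0.0366), where wild-type numbers pair the libraries. Of the other pump genes, 5 of V1, 4 of V0 and both accessory genes were called in neither genotype.

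Among the 3 forms of the a subunit in the files, Atp6v0a1, Atp6v0a2 and Tcirg1 (the a3 form, no member of the rule), Atp6v0a1 took 21.9% ± 0.735 of the summed FPKM in untreated wild-type libraries and 36.5% ± 2.61 in those with IL-4 (SD, n = 4). In KR the shares were 21.4% ± 0.561 and 36.7% ± 1.79. The libraries with IL-4 lay between 33.9% and 39.9% and the untreated ones between 20.7% and 22.8%.

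In KR macrophages IL-4 called more lysosomal genes: 13 rose and 5 fell, among them 10 and 2 of the 29 hydrolases and 2 and 3 of the 7 membrane proteins. After quantile normalization 8 rose and 8 fell. Over all genes 42.6% were called, 13.5% higher and 29.1% lower. The median of the 39 genes was 0.068, beside -0.092 for all genes. Of the pump genes 3 rose and 3 fell, with a median of -0.048; with quantile normalization 2 rose and 6 fell, and with median-ratio scaling 5 and 2. With median-ratio scaling the higher share of all calls was 48.7% in KR and 50.7% in wild type, beside 31.6% and 41% as deposited.

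The same direction was called in both genotypes for 11 lysosomal genes and 3 pump genes, and no member was called in opposite directions. Cd63, Ctss, Ctsz, Glb1, Psap and Tpp1 rose in both, as did the pump genes Atp6v0a1 and Atp6v1b2. Cln3, Ctsh, Lipa, Mcoln1 and Scarb2 fell in both, as did Atp6v0b. Across genes, which are not independent replicates and come from the same 16 libraries, the responses of the 2 genotypes had a Pearson r of 0.81 over the 39 lysosomal genes and 0.89 over the 17 pump genes. The r of the pump genes leans on Atp6v0a1, at 1.12 in wild type and 1.04 in KR. The next highest, Atp6v1b2, was at 0.41 and 0.33, and r without Atp6v0a1 was not computed.

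**Figure D3:**
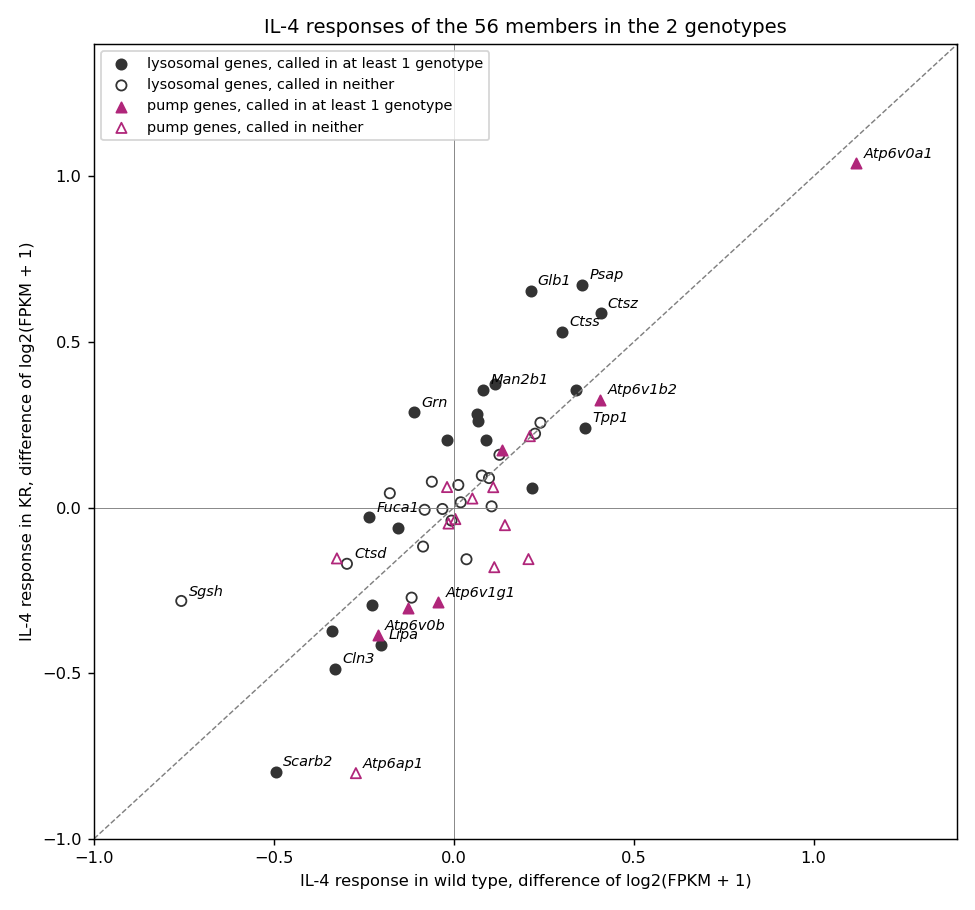
Difference of log2(FPKM + 1) between IL-4 and untreated cells in wild type (x axis) and KR (y axis) for the 56 members; circles are lysosomal and triangles pump genes, filled where called in at least 1 genotype, and the dashed line marks equal responses. Atp6v0a1 is at 1.12 and 1.04, near the line, and Glb1 at 0.21 and 0.65, above it.

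In KR, Ctsz was at 891, 949.7, 895 and 935 FPKM untreated and at 1350.4, 1445, 1359 and 1363 with IL-4 (rise of 0.59, adjusted p = 2.35e-08). Psap was at 3947, 4083, 3918 and 4116 untreated and at 6280.4, 8058, 5699.6 and 5819 with IL-4 (0.67, adjusted p = 1.99e-05). Glb1 was at 51.4, 51.4, 49.7 and 53.4 untreated and at 82.3, 80.01, 79.2 and 84.7 with IL-4 (0.65, adjusted p = 3.97e-08). In all 3 the groups stood apart, and for Psap the highest value was that of replicate 2. Ctss rose from 4042 ± 126 to 5866 ± 676 (0.53, adjusted p = 5.89e-05), but not after quantile normalization (0.02, adjusted p = 0.885).

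Man2b1, the lysosomal alpha-mannosidase, rose from 111 ± 5.75 to 142 ± 5.29 FPKM (0.36, adjusted p = 0.000222), and the asparaginyl endopeptidase Lgmn from 545 ± 16.1 to 655 ± 36.3 (0.26, adjusted p = 0.0032; 0.535 after quantile normalization). Both were short of the threshold in wild type (0.08 and 0.07). Scarb2 was at 59.5, 52.9, 59.7 and 55.9 untreated and at 32.4, 29.9, 34.8 and 32.4 with IL-4, without overlap (fall by 0.80, adjusted p = 4.45e-07). Cln3 fell by 0.49, Lipa by 0.41, Ctsh by 0.37 and Mcoln1 by 0.29, with adjusted p between 1.66e-05 and 0.000923. Cd63 rose by 0.36 and Tpp1 by 0.24.

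Calls of 5 further genes in KR were weak. Lamp2 (0.28, adjusted p = 0.018), the protease Ctsl (0.37, 0.0249), the sphingomyelinase Smpd1 (0.21, 0.0264), Grn (0.29, 0.031) and Arsb (0.20, 0.036) were each lost in some fits that leave out a library, with adjusted p up to 0.0612, 0.0713, 0.0805, 0.0792 and 0.105. Without KR IL-4 replicate 2, Lamp2 was higher by 0.41 (adjusted p = 3.43e-06). Without KR IL-4 replicate 2, Ctsl stood at 0.0661, Smpd1 at 0.0639, Grn at 0.0539 and Arsb at 0.0631. Grn and Ctsl were at their group's highest in that library, at 367 and 585 FPKM, where the other libraries with IL-4 held 247 to 275 and 358 to 455.

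Pump genes in KR repeated the wild-type pattern for Atp6v0a1, at 31.8, 40.4, 36.6 and 36.7 FPKM untreated and 67.7, 80.7, 73.4 and 81.2 with IL-4 (1.04, adjusted p = 4.53e-07). Atp6v0b fell from 122 ± 5.62 to 93.4 ± 3.05 (by 0.39, adjusted p = 2.36e-06), and Atp6v1b2 rose by 0.33 (adjusted p = 0.00102; 0.151 after quantile normalization). Atp6v1g1, a peripheral stalk subunit and the highest pump gene, was at 197, 197, 187 and 193 untreated and at 146, 171, 155 and 163 with IL-4. All 4 IL-4 libraries were lower than every untreated one (fall by 0.29, SE 0.048, adjusted p = 0.000211), whereas the wild-type difference was -0.04. Atp6v1c1, the C subunit that joins V1 to V0, fell by 0.30 (adjusted p = 0.00443; 0.054 with median-ratio scaling). Atp6v1d rose by 0.17 (adjusted p = 0.0251), a call lost without KR IL-4 replicate 2 (0.061) and in other fits that leave out a library (adjusted p up to 0.0705).

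**Figure D4:**
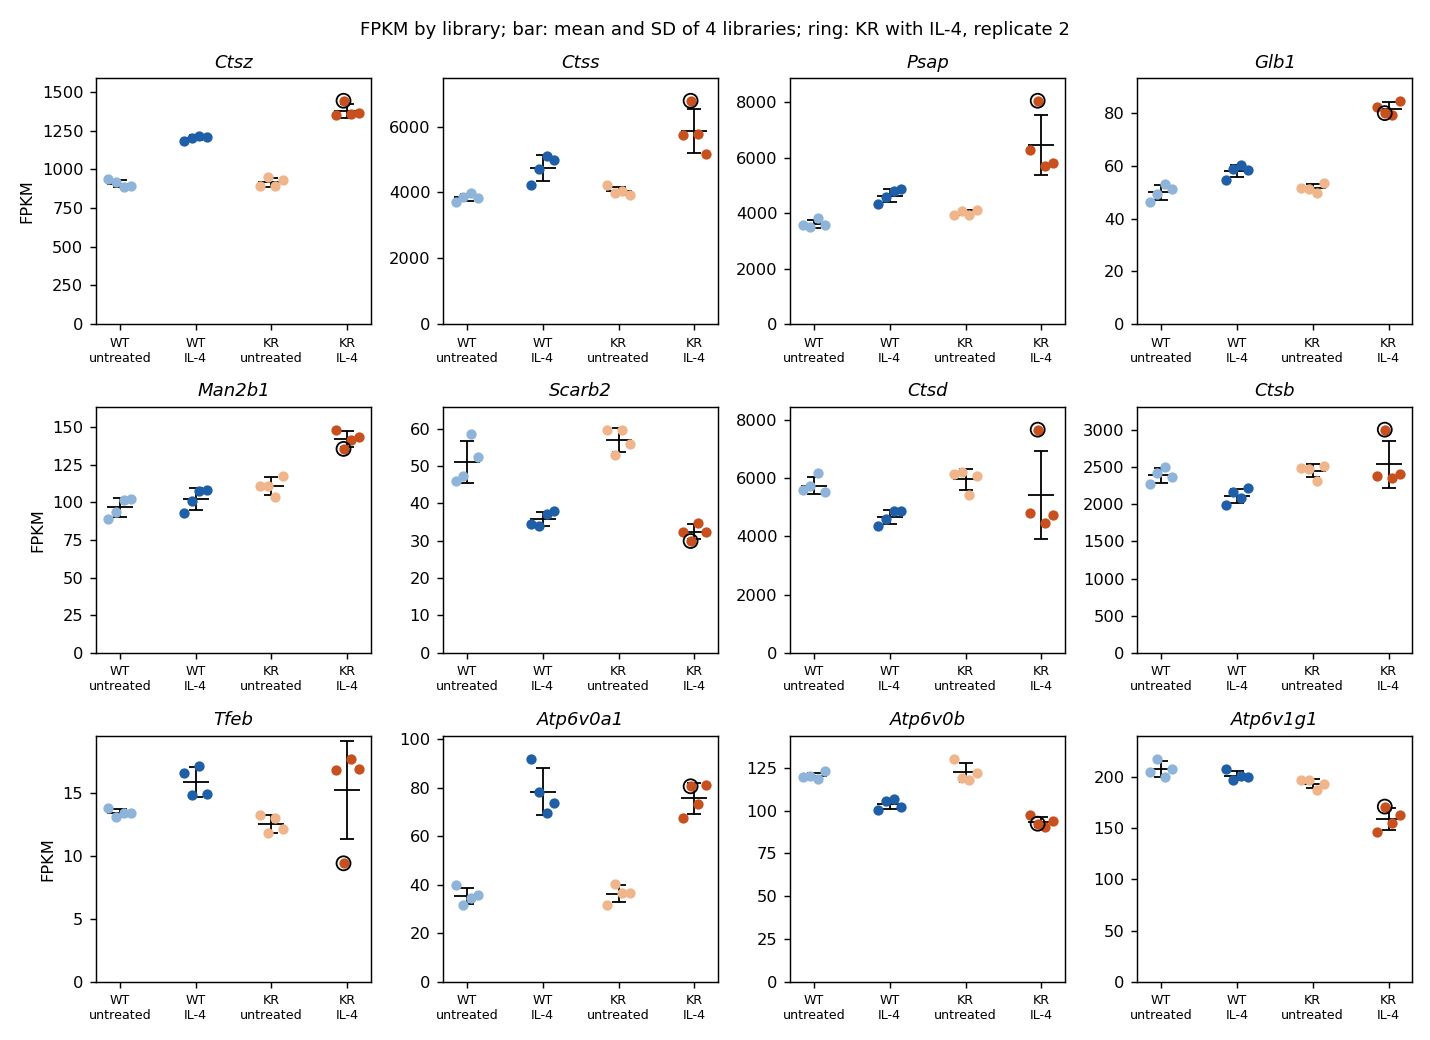
FPKM of 12 members in each of the 16 libraries, with the mean and SD of each group; the ring marks KR with IL-4 replicate 2. Glb1 in KR with IL-4 lies at 79.2 to 84.7, above all other libraries, and Ctsd and Tfeb show the ringed library far from the rest of its group.

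Several abundant or regulatory members were decided by 1 library. Ctsd was at 5585, 5721, 6166 and 5527 FPKM in untreated wild-type libraries and 4372, 4603, 4882 and 4865 in those with IL-4, without overlap. In KR it was at 6132, 6199, 5421 and 6084 untreated and at 4805, 7670.4, 4476 and 4749 with IL-4, where replicate 2 was the highest of all 16 libraries. With all libraries sharing 1 estimate of spread, Ctsd was not called in wild type (-0.30, adjusted p = 0.107) or KR (-0.17, adjusted p = 0.311). Without that library it fell in both, by 0.30 in wild type (adjusted p = 0.000881) and by 0.35 in KR (adjusted p = 0.000318). The wild-type comparison alone, fitted without KR libraries, gave an adjusted p of 0.00612.

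Tfeb, the factor that drives many lysosomal genes, was at 13.9, 13.1, 13.4 and 13.4 FPKM untreated and 16.6, 14.9, 17.2 and 14.9 with IL-4 in wild type. In KR it was at 13.3, 11.8, 13 and 12.2 untreated and at 16.8, 9.43, 17.8 and 16.9 with IL-4, where replicate 2 was the lowest of all. The differences of 0.23 and 0.22 were not called (adjusted p = 0.261 and 0.21), but without that library they were 0.23 (adjusted p = 0.00431) and 0.42 (adjusted p = 3.52e-05). Its relative Tfe3 was at 0.02 in both genotypes.

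Ctsb, the abundant cathepsin B, was at 3004 FPKM in KR IL-4 replicate 2 and at 2354 to 2401 in the others. Without that library it fell in wild type by 0.18 (adjusted p = 0.00621; 0.086 with all libraries). The same omission made IL-4 calls of Cd68 (0.14, adjusted p = 0.0392), Lamp1 (0.12, 0.0247) and Ids, an iduronate sulfatase (0.30, 0.00849), in KR, and of Atp6v0e (0.14, 0.0319), Atp6v1c1 (-0.13, 0.0352) and Atp6v1d (0.14, 0.0267) in wild type. For the heparan sulfatase Sgsh another library decided. Sgsh was at 16.6, 16.2, 18.2 and 17.7 FPKM untreated and at 9.8, 9.92, 10.1 and 9.16 with IL-4 in wild type. In KR it was at 4.27, 18.4, 17.6 and 18.1 untreated and at 10.1, 10.1, 11.5 and 9.74 with IL-4. With all libraries it was not called (adjusted p = 0.0769 and 0.477). Without KR untreated replicate 1 it fell by 0.76 and 0.74 (adjusted p = 2.11e-07 and 3.53e-07).

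Atp6ap1, the accessory subunit that aids pump assembly, was split within groups, at 133, 126, 67.2 and 58.5 FPKM in untreated wild-type libraries and 60.8, 60.7, 122 and 68 in those with IL-4. In KR it was at 125, 119, 61.9 and 120.1 untreated and at 57.6, 36.9, 71.1 and 76.5 with IL-4. High and low values stood side by side in 3 of the groups, and the differences of -0.27 and -0.80 were not called (adjusted p = 0.593 and 0.0587; 0.0477 in a fit of the KR groups alone and 0.046 after quantile normalization).

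Apart from Gaa, taken up below, the members not yet described were called in no comparison with all libraries. Ctsa, the protective protein of Glb1 and of neuraminidase, stood between 252 ± 13.4 and 274 ± 5.44 FPKM over the groups, and the beta-glucuronidase Gusb between 165 ± 1.86 and 179 ± 11. Ctsc, which activates granule proteases, was at 11.9 FPKM in KR IL-4 replicate 2 and at 18.4 to 22.3 in the others of that group. The heparan sulfate hydrolase Naglu was at 20.9 in wild-type untreated replicate 4 and at 39.8 to 43 in the other 3, and without that library it rose with IL-4 in KR (adjusted p = 0.0234; 0.255 with all libraries). Idua, the iduronidase, spread from 7.24 to 16.8 within KR with IL-4, and Galns, a keratan sulfatase, stayed between 41.4 ± 3.9 and 47 ± 3.63 as a group mean. Of the pump, Atp6v1e1 of the peripheral stalk was split like Atp6ap1, at 68.6, 67.4, 39.2 and 43 FPKM in untreated wild-type libraries. The proton-carrying ring subunit Atp6v0c ranged from 120 to 201 in KR with IL-4. Atp6v1a, the ATP-splitting A subunit, Atp6v1f, Atp6v1h, Atp6v0d1 and Atp6ap2 had IL-4 differences between -0.05 and 0.11 in both genotypes.

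Between genotypes, no member was called in untreated cells. Over all genes limma called 0 of 9891, which is 0% in either direction, 0% higher and 0% lower, although 737 genes had an unadjusted p under 0.05 and the lowest adjusted p was 0.0982. Of the 39 lysosomal genes 4 and of the 17 pump genes 0 had an unadjusted p under 0.05. Ctsd differed by 0.05 (adjusted p = 0.992), Psap by 0.15 (0.774), Atp6v1g1 by -0.10 (0.692) and Atp6v1b2 by 0.13 (0.723). The medians were 0.022 for lysosomal and 0.03 for pump genes, beside -0.001 for all genes.

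Under IL-4, 9 of the 39 lysosomal genes were higher in KR than in wild type and 0 lower, and all 9 were among the 29 hydrolases and their activator: 4 proteases, 4 glycan hydrolases and Psap. Over all genes 15% were called, 5% higher and 10% lower. The medians were 0.081 for the 39 genes and -0.051 for all genes. None of the 7 membrane proteins was called, with a median of -0.097, and 1 of these had an unadjusted p under 0.05. Of the pump genes 0 were higher and 2 lower, with a median of -0.045. Median-ratio scaling moved the higher share of all calls from 33.3% to 56.5%.

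Glb1 differed most, with wild-type IL-4 libraries at 54.7, 58.6, 60.5 and 58.5 FPKM and KR IL-4 libraries at 79.2 to 84.7 (1.4-fold; 0.48, SE 0.048, adjusted p = 2.69e-05). Man2b1 was at 92.8, 101, 107 and 108 in wild type and at 148, 135, 141 and 143 in KR (0.47, SE 0.060, adjusted p = 0.000189). Neither gene's groups overlapped. Psap was higher by 0.47 (SE 0.088, adjusted p = 0.00296; 0.0702 after quantile normalization), Lgmn by 0.33 (adjusted p = 0.00262) and Fuca1 by 0.32 (adjusted p = 0.00148). Fuca1 is the gene that fell in wild type and stood at 84.4 ± 2.27 and 82.6 ± 2.29 FPKM in KR.

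The other called hydrolases differed less. Ctsz was higher by 0.19 (adjusted p = 0.00556; 0.0709 in a fit of the 2 groups alone). Gaa, which splits glycogen, was at 27.1 ± 0.738 FPKM in wild type and 31 ± 1.89 in KR (0.19, adjusted p = 0.0228). Ctss was higher by 0.30 (adjusted p = 0.0171) and Ctsb by 0.26 (adjusted p = 0.026). In the fit of the 2 groups alone, Gaa, Ctss and Ctsb had adjusted p of 0.0847, 0.118 and 0.131. Ctss was lost without wild-type IL-4 replicate 1 (0.0533), Ctsb without replicates 1 or 3 of that group (0.0726 and 0.056), and Gaa without its replicates 3 or 4 (0.0506 and 0.0601) or KR IL-4 replicate 4 (0.0528). Quantile normalization turned the direction of Ctss to -0.21 (adjusted p = 0.0702).

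Of the pump, Atp6v1g1 was at 208, 197, 201 and 199.7 FPKM in wild type with IL-4 and at 146, 171, 155 and 163 in KR (lower by 21.1%; -0.34, SE 0.048, adjusted p = 0.000383). The 2 groups did not overlap. Atp6v0b was at 104 ± 2.89 and 93.4 ± 3.05 (-0.15, adjusted p = 0.0232), a call that did not hold with median-ratio scaling (0.223), in a fit of the 2 groups alone (0.106) or without KR IL-4 replicate 3 or wild-type IL-4 replicates 2 or 3 (0.0627, 0.0603 and 0.061). Atp6v0a1, the most responsive pump gene, differed by -0.05 (SE 0.095, adjusted p = 0.789). Lamp2 and Atp6v1c1 were not called (0.19 and -0.23, adjusted p = 0.16 and 0.0556), but without KR IL-4 replicate 2, which was at 76.3 and 61.8 FPKM where the others held 105 to 111 and 46.3 to 49, they were 0.31 (adjusted p = 0.000303) and -0.32 (adjusted p = 0.000473).

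**Figure D5:**
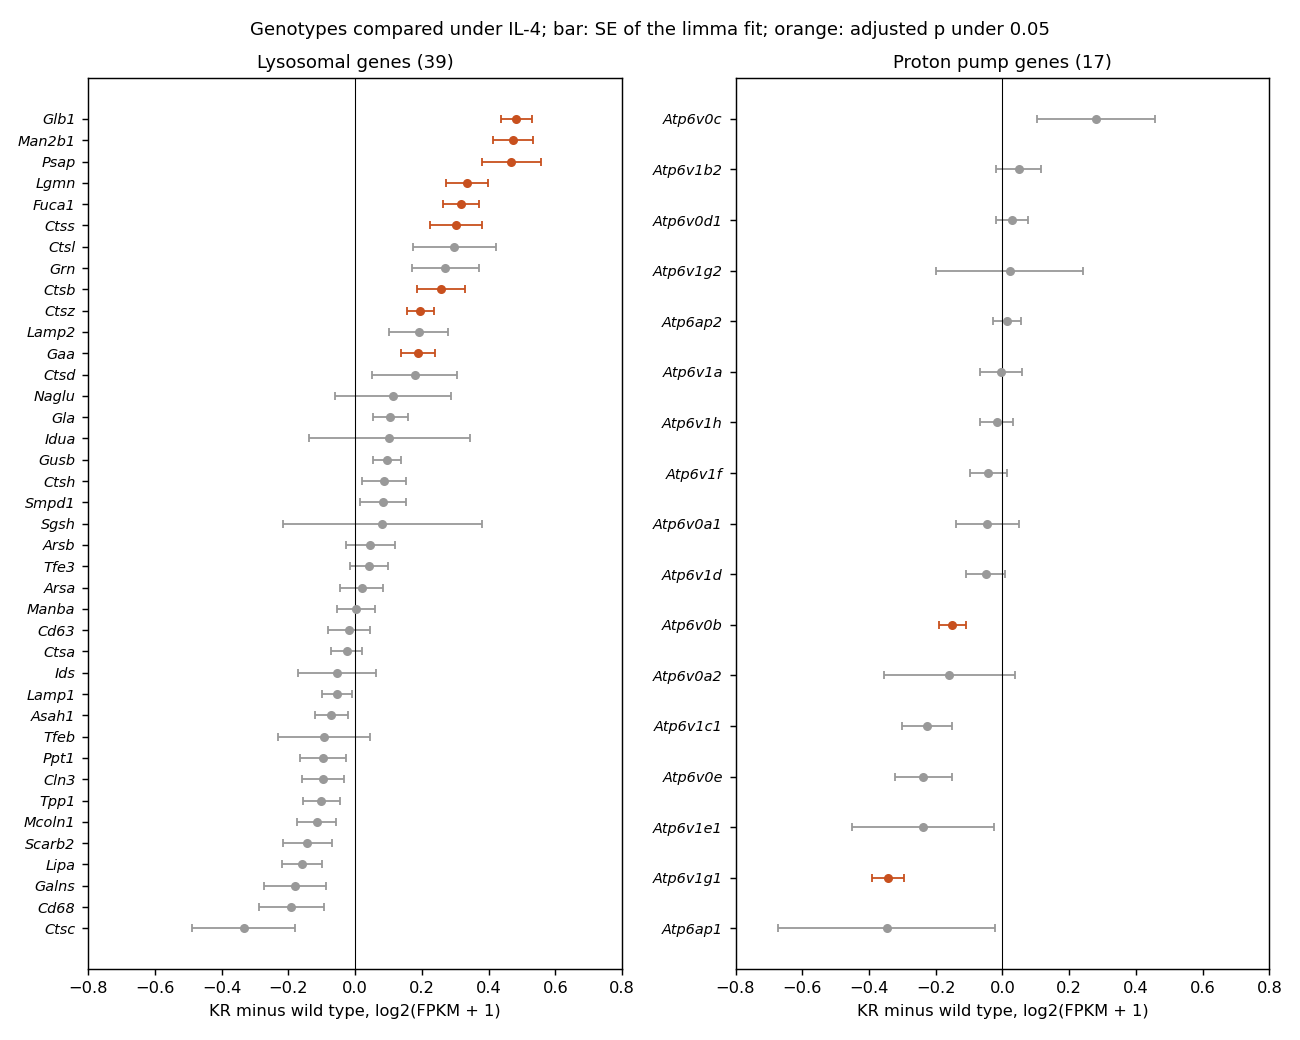
Difference of log2(FPKM + 1) between KR and wild type under IL-4 for each lysosomal (left) and pump gene (right), with the SE of the limma fit; orange marks an adjusted p under 0.05. The 9 orange lysosomal genes are all above 0, from 0.19 to 0.48, and the 2 orange pump genes are below 0.

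The difference of the 2 IL-4 responses was called for Glb1 alone among the members (0.44, SE 0.067, adjusted p = 0.00544). Over all genes 2.14% were called, 0.778% with a more positive and 1.36% with a more negative response in KR, and median-ratio scaling moved the positive share of these calls from 36.3% to 57.7%. Glb1 rose 1.16-fold in wild type and 1.59-fold in KR, and its adjusted p stayed at or below 0.0146 when any library was left out. In limma 11 of the 39 lysosomal genes had an unadjusted p under 0.05, as did 1588 of all 9891 genes tested. Of the pump genes 0 were called by limma, and 2 had an unadjusted p under 0.05. Atp6v1g1 was nearest (-0.24, adjusted p = 0.0787) and passed without KR IL-4 replicate 2 (-0.28, adjusted p = 0.0187), after quantile normalization (0.016) and with sample weights (0.018). Atp6v1b2 was at -0.08 (adjusted p = 0.715). Without the same replicate, Lamp2 (0.34, adjusted p = 0.006) and Atp6v1c1 (-0.27, adjusted p = 0.0288) also passed. With the replicate number as a block, Man2b1 (adjusted p = 0.0423) and Scarb2 (0.0453) passed as well. In the fit without it, for the other hydrolases called in KR, no difference between the 2 responses was called.

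Set against the promoters shown above, the 16 members with the half-site had a median wild-type response of -0.04, with Glb1 higher and Atp6v0b, Cln3, Gla and Mcoln1 lower. The 31 members with no half-site in their windows, Atp6v0a1 among them, had a median of 0.082, with 7 higher and 3 lower. In KR the medians were 0.01 and 0.16, with 2 higher and 3 lower among the former (Glb1 and Lgmn against Atp6v0b, Cln3 and Mcoln1) and 13 and 2 among the latter. Of the 9 hydrolases higher in KR under IL-4, Glb1, Lgmn and Gaa hold it, Ctss, Ctsz, Fuca1, Man2b1 and Psap do not, and Ctsb has no window in the table.

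Other genes of the compartment came from lists kept beside the members. Over all genes 26% were called for IL-4 in wild type, 10.7% higher and 15.3% lower. In KR the share was 42.6%, with 13.5% higher and 29.1% lower. The counts of each list below stand beside these shares. Of 22 other hydrolases and cofactors tested, 7 rose and 6 fell in wild type and 11 and 4 in KR. Between genotypes under IL-4, 5 were higher and 0 lower in KR, where 15% of all genes were called, 5% higher and 10% lower. Gm2a, the activator of ganglioside breakdown, rose from 114 ± 6.15 to 173 ± 11.6 FPKM in wild type (0.60, adjusted p = 3.39e-05) and by 0.85 in KR (adjusted p = 4.39e-07). Scpep1, a serine carboxypeptidase, rose by 0.26 and 0.46. Lyz2, the lysozyme of macrophages, fell from 13001 ± 696 to 8984 ± 424 in wild type (by 0.53, adjusted p = 0.000248) and by 0.40 in KR. Ctsf and Galc were higher in KR under IL-4, by 0.62 and 0.21. Both calls were lost when some single libraries were left out (adjusted p up to 0.0582 and 0.0509).

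Of 28 other lysosomal membrane and transport genes, 5 rose and 7 fell in wild type and 8 and 7 in KR. Among all genes 10.7% rose and 15.3% fell in wild type, and 13.5% and 29.1% in KR. The peptide transporter Slc15a3 rose by 0.60 and 0.24 (adjusted p = 4.76e-06 and 0.00719). Slc11a1, the metal transporter that limits intracellular microbes, fell by 0.87 and 0.92 (adjusted p = 6.48e-07 and 2.03e-07). The potassium channel Tmem175 was lower in KR under IL-4 by 0.29 (adjusted p = 0.00881).

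Hydrolase sorting was represented by 11 genes, of which 0 rose in either genotype and 2 and 3 fell. The falls were near the shares of all genes called lower, 15.3% in wild type and 29.1% in KR. Called higher were 10.7% and 13.5% of all genes. Gnptab, a subunit of the enzyme that starts the mannose 6-phosphate tag on hydrolases, fell from 18.6 ± 2.38 to 14 ± 0.878 FPKM in wild type (by 0.38, adjusted p = 0.00246) and from 18.8 ± 1.58 to 9.3 ± 0.515 in KR (by 0.94, adjusted p = 2.37e-07). Its responses differed by -0.56 (SE 0.114, adjusted p = 0.0212). Gga3, an adaptor of the sorting route, fell by 0.26 and 0.44.

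Of 21 regulators of mTORC1 and TFEB tested, 3 rose and 4 fell in wild type and 3 and 7 in KR. The shares of all genes were 10.7% higher and 15.3% lower in wild type, and 13.5% and 29.1% in KR. The TFEB relatives Mitf and Tfec rose, Mitf from 18.3 ± 1.58 to 29.3 ± 2.48 FPKM in wild type (0.65, adjusted p = 8.3e-05) and by 0.52 in KR, and Tfec from 2.58 ± 0.326 to 6.88 ± 1.67 (1.12, adjusted p = 9.22e-05) and by 1.36. The lysosomal GTPase gene Rragc fell by 0.46 in both (adjusted p = 3.72e-07 and 2.18e-07), and Fnip2, a partner of folliculin, by 0.65 and 0.87. Of 10 genes of pump assembly and regulation, 1 rose and 1 fell in wild type, Oxr1 (0.36) and Ncoa7 (-0.25; adjusted p up to 0.103 when a library was left out), and 1 and 4 in KR.

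Of 4 inhibitors of cathepsins and serine proteases tested, 2 rose and 1 fell in wild type and 1 and 3 in KR. Cst3, the secreted cystatin C, went from 732 ± 29 to 939 ± 25.5 FPKM in wild type and from 669.7 ± 24.2 to 1044 ± 38.7 in KR (0.36 and 0.64, adjusted p = 2.66e-05 and 3.18e-08). The 2 responses differed by 0.28 (adjusted p = 0.0336, up to 0.074 when a library was left out). Serpinb9, a granzyme inhibitor, rose by 0.21 in wild type (adjusted p = 0.0388, up to 0.107 when a library was left out) and fell by 0.40 in KR (adjusted p = 0.000354), and these responses differed by -0.62 (adjusted p = 0.00706). Of 26 autophagy genes 1 rose and 7 fell in wild type and 0 and 10 in KR, among them Ulk2 (-0.54 and -0.56) and Atg13 (-0.30 and -0.35). Over all genes 26% and 42.6% were called, with 10.7% and 13.5% higher and 15.3% and 29.1% lower. Under IL-4, 4 of the 26 were higher and 1 lower in KR, with Wipi1 at 0.30 and Calcoco1 at 0.22. In that comparison 15% of all genes were called, 5% higher and 10% lower.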

How the data were processed

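The 56 members and the gene lists beside them were chosen with earlier results of these data known. The files hold 1 value per gene and library, which the authors had computed from their reads and deposited without a named unit. The deposited values are taken as FPKM, fragments scaled by the authors to transcript length and library size, because they are not whole numbers. TPM of a larger gene set remains possible. Per the labels' protocols, RNA was enriched by poly(A) selection or by removal of ribosomal RNA, without naming which library, and made into stranded dUTP libraries. The sources used here do not name the aligner, counting tool or build; the coordinates of 53 of the 56 members equal those of the same gene versions in GENCODE M21 on GRCm38. In the 120 pairs of libraries, at most 11.11% of ratios of values below 0.2 fell within 1% of a common ratio, so no whole reads were recovered and depth is unknown.

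Values were set to log2(FPKM + 1), which understates changes of low genes, and genes at 1 or more in at least 4 libraries were kept. All 16 libraries entered 1 linear model of the 4 groups in limma 3.58.1 (R 4.3.3) with a mean-variance trend, for 5 contrasts, and was tested on simulated data. Tables and figures were made in Python 3.11.15 with pandas 2.3.3 and matplotlib 3.10.9. Members were named by a rule: in each comparison and class, up to 10 called members with the smallest adjusted p in each direction, or the 2 highest where none passes, with Ctsd, Psap, Ctss, Atp6v1g1, Atp6v1b2, Atp6v1a, Tfeb and Tfe3 throughout, and up to 3 called genes of each other list per direction. Arsb, Smpd1, Grn, Sgsh, Atp6ap1 and other members outside it were named after their values were seen, to account for every member. Same-numbered libraries were checked for pairing by the correlation of their deviations from group means: in wild type it was 0.2864, 0.122, 0.1001 and 0.1161, which pairs them by the threshold of 0.1, and in KR it was not above 0.1 in every pair. Alternatives were another pseudocount, no filter, 2 other scalings, the compared groups alone (for the interaction, which holds all groups, sample weights over the 16 libraries), a replicate block and each library left out. Counts over the other lists include some genes whose single values are not reported here.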

Additional observations from a re-analysis of the deposited data

Results flagged for a closer look

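In 120 groups of 4 libraries, those of the 30 members named by the rule, 10 held a library far from the other 3 of its group, where chance gives about 1 in 20. Of these, 5 were in KR with IL-4 replicate 2: Ctsd at 7670.4 FPKM, Ctsb at 3004 and Ctsz at 1445 were above the others, and Tfeb at 9.43 and Cln3 at 8.22 below. In KR untreated replicate 3, Ctsd was low at 5421 and Lipa high at 963. The remaining 3 were Gla at 81.3 in KR with IL-4 replicate 1, the protease Lgmn at 432 in wild-type untreated replicate 1 and Tpp1 at 70.3 in wild-type untreated replicate 2, where the group spanned little more than 1 FPKM. Members outside the rule were not in this check. They include Sgsh, at 4.27 FPKM in KR untreated replicate 1, and Naglu, at 20.9 in wild-type untreated replicate 4. Whether handling of these libraries differed was not tested. The response of Glb1 to IL-4 differed between the genotypes by the interaction test, by 0.44 on the log2 scale.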

How the results depend on the processing

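The number of called members moved by more than 1.5 times in these cases. Quantile normalization raised the pump genes called for IL-4 in wild type from 3 to 6, and those of the interaction from 0 to 1. Fitting the compared groups alone lowered the genes called between genotypes under IL-4 from 9 to 5 lysosomal and from 2 to 1 pump gene, and median-ratio scaling also left 1 pump gene. In the interaction, sample weights gave 3 lysosomal and 2 pump genes, and the replicate block 3 lysosomal genes, with Man2b1 (adjusted p = 0.0423) and Scarb2 (0.0453) beside Glb1 (0.00578). Numbers in KR did not pair the libraries; the block there ended the call of Arsb (0.0634) and, with Atp6v1d in wild type, changed no other call of a member for IL-4 or between genotypes. Leaving out each library gave 12 to 17 lysosomal and 3 to 6 pump genes in wild type, 15 to 19 and 5 to 7 in KR, 0 to 0 of either between untreated genotypes, 7 to 10 and 1 to 3 between genotypes under IL-4, and 1 to 2 and 0 to 2 in the interaction. The highest wild-type pump count and the highest interaction counts were those without KR IL-4 replicate 2, and 1 pump gene was left between genotypes under IL-4 without wild-type IL-4 replicates 2 or 3. For the members named by the rule, 1693 of 1760 recomputed values kept direction and side of the threshold, 54 lost and 12 gained a call, and 1 turned: Ctss between genotypes under IL-4, -0.2078 after quantile normalization. The cause was not tested. The rule takes the calls with the smallest adjusted p in these same data, and some members named throughout whether called or not. The 1760 values thus leave out weaker calls, such as those of Arsb, Smpd1 and Grn in KR, and do not measure stability for all members. With depth unknown, no counting error can be given for the low members, such as Atp6v1g2.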
